A study of Homo sapiens with 6 samples.

Results

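The hexosamine pathway genes described here are GFPT1, GFPT2, GNPNAT1, PGM3, UAP1 and OGT, 6 of the 58174 genes in the deposited table. They were selected on a value of these data, since GFPT2 was nearly 3-fold higher upon MSI1 knockdown, so their differences between the groups are given as a description with no test. The data are polyA RNA-seq libraries of KNS42, a cell line established from a glioblastoma (GBM) of childhood and grown in serum-containing medium. Cells were transfected with a pool of siRNAs against MSI1 (siMSI1, n = 3) or with a control siRNA (siC, n = 3) and harvested after 72 h. MSI1 encodes Musashi RNA binding protein 1, which binds mRNAs mostly in their 3′UTRs and is abundant in neural progenitors and glioma. The knockdown is transient and partial, the cell line is the only model, and the labels do not say whether the 3 libraries of a group came from separate cultures, so p-values measure only the spread between these libraries.

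The hexosamine pathway makes UDP-GlcNAc, the nucleotide sugar from which cells build N-glycans, hyaluronan and other glycosaminoglycans, and the single O-linked GlcNAc on nuclear and cytosolic proteins. GFPT1 and GFPT2 (also GFAT1 and GFAT2) are isoenzymes of the first and rate-limiting step, in which the amino group of glutamine is moved onto fructose 6-phosphate from glycolysis. GNPNAT1 acetylates the resulting glucosamine 6-phosphate, PGM3 moves its phosphate, UAP1 joins the sugar to UTP, and OGT transfers GlcNAc from UDP-GlcNAc to serine and threonine of proteins. GFPT1 is expressed in most tissues, and GFPT2 is known from the nervous system and from mesenchymal tumour cells.

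Libraries held 14448513 to 18024080 reads on genes in siC and 13087025 to 14700593 in siMSI1. Values are FPKM (read counts divided by gene length and by a size of the library that differed slightly from its reads on genes). The paper states TMM normalization, a scaling between libraries, for its edgeR comparison, and does not say whether the FPKM carry it. The knockdown target MSI1 measured 63.7, 61.9 and 66.9 FPKM in the siC libraries and 12.1, 12.3 and 11.2 FPKM upon knockdown, 18.5% of the siC level. Of 8 glioma and neural progenitor markers, 7 had a mean of at least 1 FPKM and S100B was at 0 in every library, and their summed level, mostly VIM, was 1507 to 1571 FPKM in siC and 1249 to 1350 FPKM in siMSI1. Single markers differed in both directions. GFAP was at 1.33 to 1.99 FPKM in siC and 4.14 to 5.04 FPKM in siMSI1, and SLC1A3 at 18.4 to 19.0 and 21.2 to 22.5 FPKM. The other expressed markers were lower in siMSI1, with VIM at 996 to 1056 and 824 to 937 FPKM, and NES at 68.2 to 70.2 and 58.2 to 63.7 FPKM. SOX2 was at 296 to 305 and 243 to 279 FPKM, CD44 at 83.4 to 86.6 and 57.7 to 65.4 FPKM, and FABP7 at 34.3 to 38.4 and 15.1 to 17.8 FPKM. The 4 immune, 3 endothelial and 3 oligodendrocyte markers all had means under 1 FPKM (summed, 0.159 to 0.209 against 0.248 to 0.558 FPKM, 0.134 to 0.262 against 0.290 to 0.442 FPKM, and 0.0114 to 0.0182 against 0.0041 to 0.0335 FPKM in siC and siMSI1). Of 3 epithelial markers only KRT8 reached 1 FPKM (summed, 0.999 to 1.40 FPKM in siC and 0.848 to 1.51 FPKM in siMSI1), and of 3 neuron markers only SYT1 did (summed, 3.91 to 4.62 FPKM and 3.39 to 3.82 FPKM), with RBFOX3 at 0. The part of these markers in the values of the pathway genes was not tested. Fewer cells of a type and less RNA per cell cannot be told apart in such bulk libraries. Of the 15069 genes tested (mean of at least 0.5 FPKM), 11.0% were past the threshold of an adjusted p of 0.01, 5.15% higher and 5.83% lower in siMSI1, and for 42.8% the 3 values of one group lay entirely above those of the other. The test was limma on log2(FPKM + 0.1) with Benjamini-Hochberg adjustment, and all log2 fold changes are on that scale, siMSI1 over siC.

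GFPT2 (ENSG00000131459) lies on the minus strand of chromosome 5, from 180300698 to 180353336 of GRCh38, and its canonical transcript has 19 exons. Since the perturbed protein binds 3′UTRs, the 3′UTR of that transcript (866 bases, GENCODE release 44) was searched for the Musashi core motif, GUAGU or AUAGU, each also with up to 2 further U before the AGU, on the mRNA strand and with overlapping matches counted. It holds 3 matches, shown with their neighbouring bases as RNA, 5′ to 3′, with the motif in capitals and the genome position of the window behind the name.
GFPT2, base 316 of the 3′UTR, chr5:180301231-180301260, minus strand: accaacacuagaGUUAGUuuuaaaagacaa
GFPT2, base 739 of the 3′UTR, chr5:180300808-180300837, minus strand: ugcuccuugcccAUAGUaaaacagcuugaa
GFPT2, base 774 of the 3′UTR, chr5:180300773-180300802, minus strand: ccaugcaagagaGUAGUuucaagugggcaa
A short motif of this kind is common. Among the 644 3′UTRs of tested protein-coding genes within 10% of this length, 71.3% held at least 1 match (median 1). At least as many as in GFPT2 were held by 24.5%. A match is a description of the letters and not a site of binding, and binding was not measured in these libraries.

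The isoenzyme GFPT1 (ENSG00000198380, chromosome 2, 69319780 to 69387250, minus strand, 20 exons) has a far longer 3′UTR of 6409 bases with 22 matches. Of the 268 3′UTRs within 10% of its length, 16.0% held at least as many (median 15). Its 3 matches nearest to the stop codon are shown for comparison with those of GFPT2, with the same marking.
GFPT1, base 373 of the 3′UTR, chr2:69325799-69325828, minus strand: accagugaaagaGUAGUgcauuuaauugga
GFPT1, base 635 of the 3′UTR, chr2:69325537-69325566, minus strand: cgaaauauuacaGUAGUgcauugguggguc
GFPT1, base 820 of the 3′UTR, chr2:69325352-69325381, minus strand: uuccuuguaucuGUAGUcuuuuauuuuuua
All 3 carry the GUAGU form. Per kilobase, the 3′UTRs of GFPT1 and GFPT2 held nearly the same number of matches, 3.43 and 3.46. For the other members the number was 4.17 for GNPNAT1 (13 matches), 1.38 for PGM3 (6), 3.73 for UAP1 (7) and 3.81 for OGT (8), beside 2.16 per kilobase over the 11259 3′UTRs searched. PGM3 was the only member under that overall density.

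Upon MSI1 knockdown, GFPT2 was higher in each library, whereas the other 5 genes had values near or under those of siC. All 6 were above the filter on low values. Their log2 fold changes ran from −0.29 for PGM3 to 1.41 for GFPT2, with a median of −0.17, beside a median of 0.00 over all genes tested. The groups did not overlap for 4 of 6, beside 42.8% of all genes, and as GFPT2 chose the list, this count is not read as a result.

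**Figure D1:**
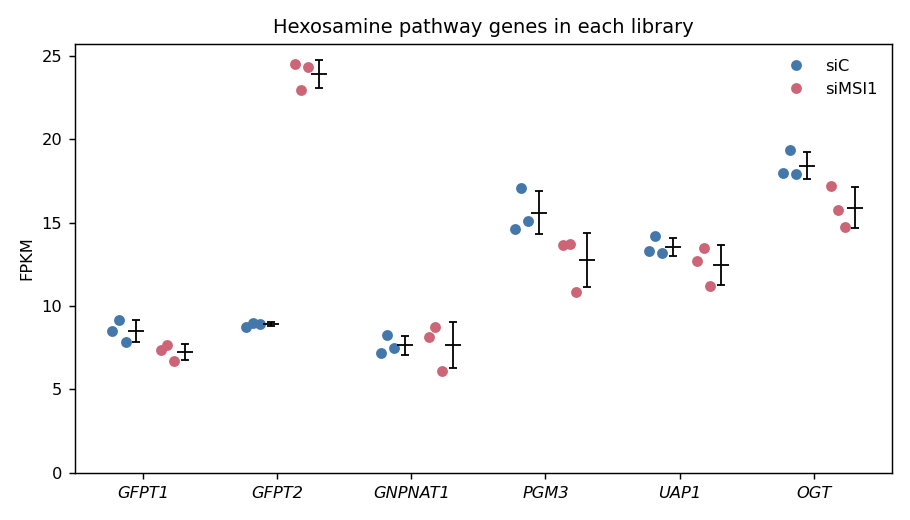
Level of the 6 hexosamine pathway genes in FPKM (y axis, from 0). Each point is 1 library (blue siC, red siMSI1), and the bar beside the points is the mean with the SD of 3 libraries. The siMSI1 values of GFPT2 lie at 22.9 to 24.5 FPKM, far above its siC values near 9 FPKM, while the other genes shift little.

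GFPT2 measured 8.77, 8.99 and 8.94 FPKM in the siC libraries and 24.5, 22.9 and 24.3 FPKM upon knockdown. The siC values were nearly identical, and the lowest siMSI1 value exceeded the highest siC value by 13.9 FPKM. The means were 8.90 ± 0.114 FPKM and 23.9 ± 0.859 FPKM (SD, n = 3), a ratio of 2.69 and a log2 fold change of 1.41 (standard error 0.062). This placed GFPT2 at rank 137 from the top of the 15069 genes tested. The reads behind these values were 628, 777 and 615 in siC and 1724, 1436 and 1670 in siMSI1. No other annotated gene overlaps GFPT2.

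GFPT1, the broadly expressed isoenzyme, measured 8.52, 9.14 and 7.83 FPKM in the siC libraries and 7.34, 7.67 and 6.72 FPKM upon knockdown. The groups did not overlap, but the gap was only 0.158 FPKM and smaller than the spread within either group. Its mean level in siMSI1 was 85.2% of that in siC (8.50 ± 0.654 and 7.24 ± 0.487 FPKM, SD, n = 3), with a log2 fold change of −0.23 (standard error 0.089).

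The transcript pool of the first step therefore had another make-up in siMSI1. In siC, GFPT2 took 50.7%, 49.6% and 53.3% of the summed FPKM of both isoenzymes, so that neither prevailed. In siMSI1 it took 76.9%, 74.9% and 78.4%. The mean share was 51.2% ± 1.92 in siC and 76.7% ± 1.74 in siMSI1 (SD, n = 3). The summed level was 17.3, 18.1 and 16.8 FPKM in siC and 31.8, 30.6 and 31.0 FPKM in siMSI1, a ratio of 1.79 between the means. The share and the ratio of the summed levels rest on the gene length behind the FPKM, and the ratio of 1.79 is for the counted lengths alone. The authors' counting used 4780 bases for GFPT2, beside 3034 in the canonical transcript, and 8866 bases for GFPT1, beside 8665. With canonical lengths, an alternative chosen after the data were seen, the share was 61.8% ± 1.81 in siC and 83.5% ± 1.34 in siMSI1, and as a share of reads alone it was 36.1% ± 1.78 and 64.0% ± 2.24. Which isoenzyme prevails in siC thus differs between the length scales, while the share was higher in siMSI1 on each of them.

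**Figure D2:**
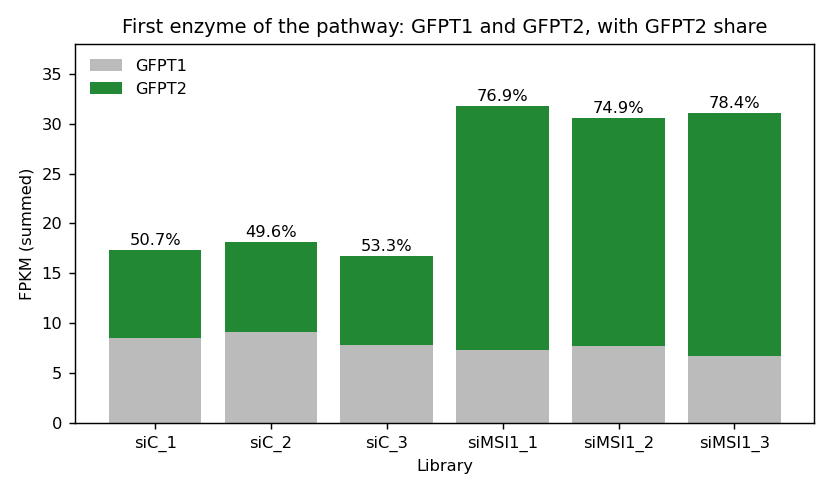
Stacked FPKM of GFPT1 (grey) and GFPT2 (green) in each library (y axis, summed FPKM, from 0), with the share of GFPT2 above each bar. The GFPT2 share is 49.6% to 53.3% in the siC libraries and 74.9% to 78.4% in the siMSI1 libraries, and the grey part is slightly smaller in siMSI1.

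GNPNAT1 (ENSG00000100522, chromosome 14, 52775193 to 52791668, minus strand, 6 exons), the acetyltransferase of the next step, measured 7.18, 8.26 and 7.47 FPKM in the siC libraries and 8.14, 8.71 and 6.13 FPKM upon knockdown. The siMSI1 libraries held both the highest and the lowest value, and the groups overlapped. The means were 7.64 ± 0.560 and 7.66 ± 1.36 FPKM (SD, n = 3), a log2 fold change of −0.01 (standard error 0.135). On the opposite strand an antisense RNA (ENSG00000259049) overlaps it, at means of 1.10 FPKM in siC and 1.34 FPKM in siMSI1 and with at most 39 reads in a library. Library preparation was strand-specific, but the strand setting of the counting is not given in the sources used here, so reads of overlapping genes may have been shared or left out.

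PGM3 (ENSG00000013375, chromosome 6, 83147324 to 83193936, minus strand, 13 exons), the phosphoacetylglucosamine mutase, measured 14.6, 17.1 and 15.1 FPKM in the siC libraries and 13.7, 13.7 and 10.9 FPKM upon knockdown. All siMSI1 values lay under the siC values, by a gap of 0.858 FPKM, and siMSI1 replicate 3 was well under the other libraries. The mean in siMSI1 was 81.8% of that in siC (15.6 ± 1.30 and 12.8 ± 1.64 FPKM, SD, n = 3), the lowest ratio among the members, with a log2 fold change of −0.29 (standard error 0.11). PGM3 overlaps RWDD2A (means of 4.64 FPKM in siC and 4.57 FPKM in siMSI1) and DOP1A (3.68 and 2.99 FPKM) on the opposite strand.

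UAP1 (ENSG00000117143, chromosome 1, 162561722 to 162601240, plus strand, 11 exons), the pyrophosphorylase that makes UDP-GlcNAc, measured 13.3, 14.2 and 13.2 FPKM in the siC libraries and 12.7, 13.5 and 11.2 FPKM upon knockdown. The groups overlapped. The means were 13.6 ± 0.537 and 12.5 ± 1.17 FPKM (SD, n = 3), 91.9% of the siC level, with a log2 fold change of −0.12 (standard error 0.085). A noncoding RNA on the same strand (ENSG00000272574) overlaps UAP1 and had at most 10 reads in a library.

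OGT (ENSG00000147162, chromosome X, 71533087 to 71575892, plus strand, 22 exons), the enzyme that uses UDP-GlcNAc to modify proteins, measured 18.0, 19.3 and 17.9 FPKM in the siC libraries and 17.2, 15.7 and 14.8 FPKM upon knockdown. The groups did not overlap, with a gap of 0.72 FPKM. Its mean in siMSI1 was 86.3% of that in siC (18.4 ± 0.808 and 15.9 ± 1.23 FPKM, SD, n = 3), with a log2 fold change of −0.21 (standard error 0.078). OGT is the member whose counted length (9812 bases) exceeds that of its canonical transcript (5435 bases) by the largest ratio, 1.81, and no other annotated gene overlaps it.

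Within the groups, the other 5 genes mostly deviated in the same direction in a library, and GFPT2 hardly deviated. In siC replicate 2 all 5 were above the mean of their own group, with a median deviation of 0.11 on the log2 scale, and in siC replicate 3 all 5 were under it, with a median of −0.04. In siMSI1 replicate 3 all 5 were under their group's mean, with a median of −0.15 and with GNPNAT1 at −0.30 and PGM3 at −0.22, whereas siMSI1 replicates 1 and 2 were at medians of 0.10 and 0.11. The largest deviation of GFPT2 was −0.06, in siMSI1 replicate 2. Over all tested genes the medians stayed between −0.0045 and 0.011. The 3387 tested genes with a counted length over 7 kb had median deviations of 0.04 in siC replicate 2, −0.05 in siC replicate 3 and −0.05 in siMSI1 replicate 3, in the direction of the members there, and of 0.03 and 0.01 in siMSI1 replicates 1 and 2. In siC replicate 1 they were at 0.0085, opposite to the members' median of −0.03. GNPNAT1 (4009 bases) and UAP1 (3437 bases) are shorter than 7 kb, and the part of gene length in the members' values was not tested. Without siMSI1 replicate 3 the log2 fold changes were −0.17 for GFPT1, 0.14 for GNPNAT1, −0.18 for PGM3, −0.05 for UAP1, −0.16 for OGT and 1.40 for GFPT2.

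**Figure D3:**
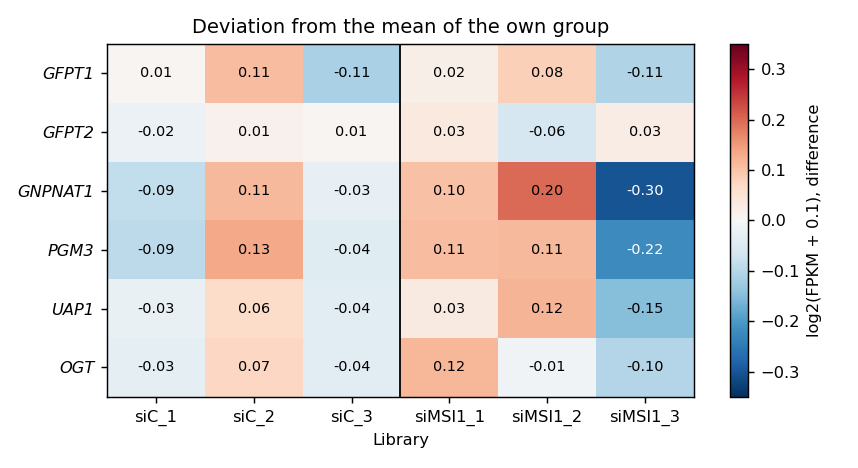
Deviation of each gene (rows) in each library (columns) from the mean of its own group, on the log2(FPKM + 0.1) scale (red above, blue under the mean). The 5 genes other than GFPT2 are all above the mean in siC replicate 2 and all under it in siMSI1 replicate 3, where GNPNAT1 reaches −0.30, while GFPT2 stays between −0.06 and 0.03.

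Per length of gene, the order of the levels in siC was OGT, PGM3, UAP1, GFPT2, GFPT1 and GNPNAT1. OGT, PGM3 and UAP1 were each apart from the next gene in this order, whereas the siC values of GFPT2 overlapped those of GFPT1, and those of GFPT1 overlapped those of GNPNAT1. In siMSI1 the order was GFPT2, OGT, PGM3, UAP1, GNPNAT1 and GFPT1, where PGM3 and UAP1 overlapped, as did GNPNAT1 and GFPT1. On this scale GFPT2 shared its level with GFPT1 alone in siC, above GNPNAT1, and had the highest level of the members in siMSI1. With the lengths of the canonical transcripts, the siC means were 33.2 for OGT, 18.8 for PGM3, 14.0 for GFPT2, 13.1 for UAP1, 8.70 for GFPT1 and 7.92 FPKM for GNPNAT1. On this scale GFPT2 was at 37.7 and OGT at 28.7 FPKM in siMSI1, followed by PGM3 at 15.4, UAP1 at 12.0, GNPNAT1 at 7.94 and GFPT1 at 7.41 FPKM. Only GFPT1 and GNPNAT1 overlapped there, in either group.

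The genes around the pathway were taken from 12 lists of 101 genes in all, of which 86 passed the filter on low values. Upon MSI1 knockdown, 6 of the 86 rose and 6 fell (14.0%, beside 11.0% of all genes tested), and 47 did not overlap between the groups (54.7%, beside 42.8%). Their median log2 fold change was −0.05. The counts of single lists given below stand beside the same 11.0% and, with so few genes each, are not read as results. The rise of HAS3 and the fall of CHSY1 and ATF6 were past the threshold with each library left out in turn, whereas MGAT5 lost it without siC replicate 1 (adjusted p = 0.0131) and the other 8 without 3 or more of the 6 libraries, each taken out alone. Without siC replicate 1, 3 of the 12 calls were left (3.5% of the 86 genes, beside 3.5% of all genes tested).

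**Figure D4:**
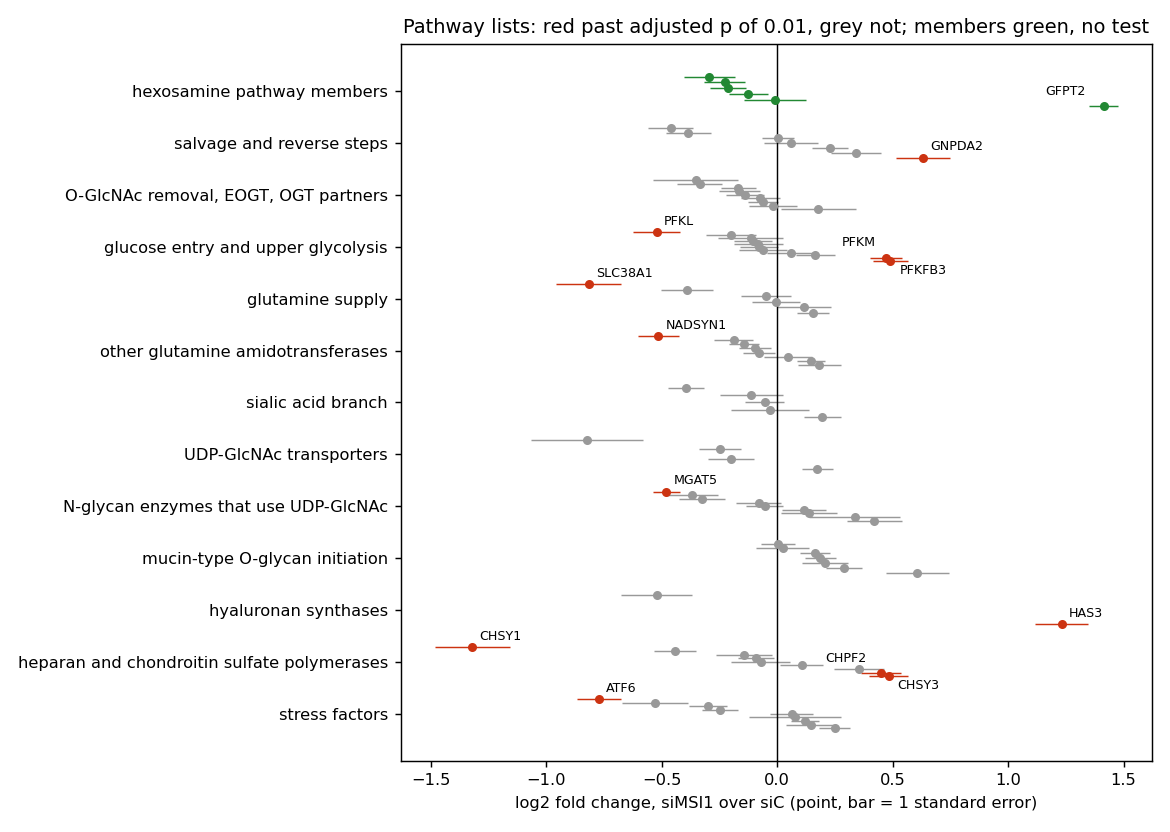
Log2 fold change of siMSI1 over siC (x axis) with 1 standard error for the members and the tested genes of each list (rows). Red genes are past an adjusted p of 0.01, grey genes are not, and members in green carry no test. GFPT2 at 1.41 and HAS3 at 1.23 lie far to the right, CHSY1 at −1.32 far to the left, and most other genes lie within 0.5 of 0.

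At the branch point of the pathway, where fructose 6-phosphate is either passed down glycolysis or taken by GFPT, 2 of 11 tested genes of glucose entry and upper glycolysis rose and 1 fell (median −0.08). The phosphofructokinase isoform PFKM measured 16.9, 17.3 and 18.3 FPKM in the siC libraries and 23.4, 23.9 and 25.8 FPKM upon knockdown (log2 fold change 0.47, standard error 0.069, adjusted p = 0.0028). The isoform PFKL measured 13.7, 12.6 and 14.6 FPKM in the siC libraries and 8.80, 8.88 and 10.8 FPKM upon knockdown (−0.52, standard error 0.102, adjusted p = 0.0093). So both isoforms were apart between the groups in opposite directions, while PFKP, the isoform with the highest level, was at 113 ± 6.20 and 126 ± 11.4 FPKM (SD, n = 3; 0.16, adjusted p = 0.19). PFKFB3, which makes the activator of phosphofructokinase, fructose 2,6-bisphosphate, rose from 10.5, 10.3 and 11.0 FPKM to 16.0, 13.9 and 15.0 FPKM (0.49, standard error 0.076, adjusted p = 0.0036). The glucose transporter SLC2A1 (−0.20, adjusted p = 0.21) and hexokinase HK1 (−0.08, adjusted p = 0.54) did not pass the threshold.

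Glutamine is the second substrate of GFPT. Of 6 tested genes of glutamine supply, 1 fell (median −0.03). The glutamine transporter SLC38A1 measured 6.13, 6.34 and 5.22 FPKM in the siC libraries and 3.61, 3.66 and 2.70 FPKM upon knockdown, with no overlap (−0.82, standard error 0.139, adjusted p = 0.0055). Glutamine synthetase, GLUL, the most abundant gene of this list, differed by 0.16 on the log2 scale (adjusted p = 0.14). Among 8 other enzymes that take an amide group from glutamine, 1 fell (median −0.09), the NAD synthetase NADSYN1, from 6.26, 6.05 and 6.80 FPKM to 4.50, 4.16 and 4.64 FPKM (−0.51, standard error 0.087, adjusted p = 0.0053). CTPS1, the CTP synthase with the highest level in that list, was not past the threshold (0.15, adjusted p = 0.12).

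Of the 7 tested genes of salvage and of the reverse steps, 1 rose (median 0.06). GNPDA2, a glucosamine-6-phosphate deaminase that works against the GFPT step, measured 1.77, 1.86 and 1.88 FPKM in the siC libraries and 2.83, 3.25 and 2.66 FPKM upon knockdown (0.63, standard error 0.118, adjusted p = 0.0078). Its paralog GNPDA1 had the higher level, at 22.3 ± 0.988 and 22.4 ± 1.18 FPKM (SD, n = 3; 0.00, adjusted p = 0.98), and the sign of so small a difference depends on the scaling and on single libraries. NAGK, the kinase of GlcNAc salvage, differed by 0.23 on the log2 scale (adjusted p = 0.067).

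None of the 9 genes around O-GlcNAc other than OGT passed the threshold, beside 11.0% of all genes tested (median −0.14). The enzyme that removes O-GlcNAc, listed under its older symbol MGEA5 (now OGA), measured 18.2, 20.1 and 18.7 FPKM in the siC libraries and 18.0, 19.7 and 16.5 FPKM upon knockdown. The groups overlapped (−0.07, standard error 0.083, adjusted p = 0.57). BAP1, a deubiquitinase found in complexes with OGT, was at the highest level of this list (−0.16, adjusted p = 0.21). EOGT, which puts GlcNAc on extracellular proteins, was at 1.47 ± 0.0109 and 1.15 ± 0.265 FPKM (SD, n = 3; −0.35, adjusted p = 0.20).

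Among the consumers of UDP-GlcNAc, the hyaluronan synthase HAS3 had the largest rise of the tested list genes. It measured 1.46, 1.45 and 1.64 FPKM in the siC libraries and 4.04, 3.55 and 3.54 FPKM upon knockdown, all siMSI1 values being above 3.5 and all siC values under 1.7 FPKM (1.23, standard error 0.115, adjusted p = 0.00053). HAS2 averaged 2.48 ± 0.0455 FPKM in siC and 1.72 ± 0.325 FPKM in siMSI1 (SD, n = 3) and did not pass the threshold (−0.52, adjusted p = 0.043), and HAS1 had at most 1 read in a library. The mean FPKM of HAS2 was thus above that of HAS3 in siC and under it in siMSI1.

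The polymerases of chondroitin sulfate, which is built from UDP-GalNAc and UDP-glucuronic acid, moved in both directions. Of 9 tested genes for heparan and chondroitin sulfate, 2 rose and 1 fell (median −0.07). CHSY1 measured 3.15, 2.84 and 2.25 FPKM in the siC libraries and 1.09, 1.10 and 0.915 FPKM upon knockdown (−1.32, standard error 0.163, adjusted p = 0.0014), the largest fall of the lists. CHSY3, its paralog, measured 3.70, 3.57 and 3.64 FPKM in the siC libraries and 5.15, 5.35 and 4.86 FPKM upon knockdown (0.48, standard error 0.083, adjusted p = 0.0057). CHPF2 measured 48.4, 44.1 and 48.1 FPKM in the siC libraries and 63.9, 58.1 and 70.8 FPKM upon knockdown (0.45, standard error 0.086, adjusted p = 0.0084), and CHPF, the most abundant of the list, differed by 0.36 on the log2 scale (adjusted p = 0.046), a difference that was past the threshold with voom on the recovered reads (adjusted p = 0.0065).

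In the N-glycan list 1 of 9 tested genes fell (median −0.05). MGAT5, which adds the branch of complex N-glycans that depends strongly on the supply of UDP-GlcNAc, measured 30.3, 29.8 and 28.8 FPKM in the siC libraries and 21.6, 21.1 and 20.9 FPKM upon knockdown, with little spread in either group (−0.48, standard error 0.059, adjusted p = 0.0013). No gene passed the threshold in the lists of the sialic acid branch (5 tested, median −0.05), of UDP-GlcNAc transporters (4 tested, median −0.22) and of mucin-type O-glycan initiation (7 of 14 tested, median 0.19). The genes of highest level there were CMAS (−0.05, adjusted p = 0.69), SLC35D2 (0.17, adjusted p = 0.097) and GALNT2 (0.19, adjusted p = 0.081). The transporters other than SLC35D2 were lower in siMSI1, namely SLC35A3 (−0.82, adjusted p = 0.043), SLC35B4 (−0.25, adjusted p = 0.086) and SLC35D1 (−0.20, adjusted p = 0.18).

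Of 9 genes in a list of stress response genes and transcription regulators, 1 fell (median 0.06). ATF6, a sensor of unfolded proteins in the endoplasmic reticulum, measured 10.6, 11.4 and 10.0 FPKM in the siC libraries and 6.72, 6.43 and 5.55 FPKM upon knockdown (−0.77, standard error 0.095, adjusted p = 0.0014). XBP1, whose spliced form drives transcription of GFPT1, was at 45.6 ± 1.89 and 38.4 ± 3.37 FPKM (SD, n = 3; −0.25, adjusted p = 0.055), and ATF4 was at 62.6 ± 1.01 and 74.5 ± 4.80 FPKM (0.25, adjusted p = 0.032). NR4A1 (−0.53, adjusted p = 0.032) and SP1 (−0.30, adjusted p = 0.031) were lower in siMSI1 and likewise not past the threshold. The chaperone HSPA5, which had the highest level of this list, differed by 0.12 (adjusted p = 0.19). Gene-level values do not tell the spliced form of XBP1 from the unspliced form.

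The genes whose pattern was most like that of GFPT2 were sought among 10571 protein-coding genes with a mean of at least 1 FPKM, by the root mean square difference of the log2 values over the 6 libraries, each gene centred on its own mean. The nearest were RHPN2 (difference 0.0521), SLC47A2 (0.0550), BTN3A3 (0.0853), BTG2 (0.0915) and HAS3 (0.116). RHPN2 measured 5.70, 6.09 and 6.08 FPKM in the siC libraries and 15.7, 14.1 and 16.3 FPKM upon knockdown, with its lowest siMSI1 value in replicate 2, as for GFPT2. BTG2, an antiproliferative gene induced by p53, measured 11.1, 10.7 and 10.6 FPKM in the siC libraries and 28.6, 30.9 and 33.4 FPKM upon knockdown. The log2 fold changes of the 5 genes were 1.23 to 1.51, around the 1.41 of GFPT2. HAS3, named above as a consumer of UDP-GlcNAc, was the only gene of the pathway lists among them. The other members differed from GFPT2 by 0.734 to 0.865, beside a median of 0.720 over all genes compared. With 6 libraries in 2 groups, this measure mostly picks genes with a difference between the groups of the same size.

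**Figure D5:**
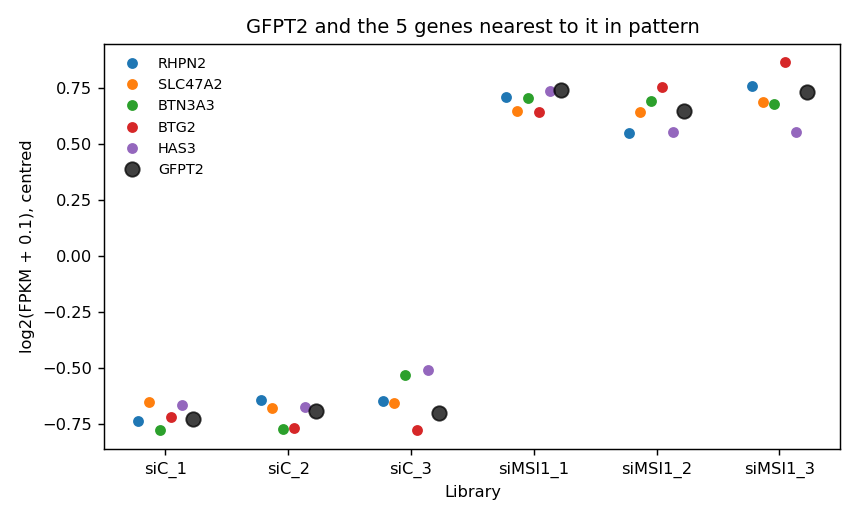
Centred log2(FPKM + 0.1) of GFPT2 (black) and of the 5 genes nearest to it in pattern (colours) in each of the 6 libraries, with points set apart sideways for visibility. All 6 genes lie under −0.5 in the siC libraries and above 0.5 in the siMSI1 libraries, and HAS3 is the gene at the upper edge in siC replicate 3 and near the lower edge in siMSI1 replicates 2 and 3.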

How the data were processed

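KNS42 libraries of siC and siMSI1 (3 each) were grouped by their labels. The deposited table holds FPKM per gene and library, which the authors made with cutadapt 1.14, HISAT2 2.1.0 on GRCh38 and featureCounts 1.5.3 on an Ensembl annotation. Its log2 fold changes, p-values and false discovery rates of the authors' own comparison (edgeR 3.18.1) were not used. FPKM times the gene length deposited in the table gave whole reads for 100% of the values above 0 (tolerance 0.001). For a 2 kb gene, a floor of 3 reads equals 0.0829 to 0.114 FPKM (counting error only). No pair of libraries was a duplicate (chi-square per degree of freedom of at least 3.55 within a group).

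limma 3.58.1 in R 4.3.3 (lmFit, then eBayes with trend and robust) was run on log2(FPKM + 0.1) without a block for the 15069 genes whose mean reached 0.5 FPKM, and was tested on simulated data. Adjusted p-values are Benjamini-Hochberg over these genes, with the study's threshold of 0.01. The members and lists were chosen with earlier results of these data known, so counts over them are descriptions. Named genes are the members, MSI1, each list gene past the threshold, the tested gene with the highest mean of each list, and the 5 protein-coding genes nearest to GFPT2. A gene that this rule names is not reported here. AMDHD2, ATF4, EOGT, EXTL3, FBP1, GALNT1, GLS2, GNE, HAS1, HAS2, HK1, MGEA5, NAGK, PFKP, RENBP, SLC2A1 and XBP1 were named after their values were seen. So were NR4A1, SLC35A3, SLC35B4, SLC35D1 and SP1. HAS3 and MGAT5 came in under more than 1 part of this rule. Python 3.11.15 with numpy 2.4.6, pandas 2.3.3 and matplotlib 3.10.9 made the other tables and the plots. Transcripts and 3′UTRs are from GENCODE release 44 on GRCh38, another release than that of the counting. 3′UTRs of at least 30 bases were searched for 11259 of the 11365 tested protein-coding genes. Alternatives changed the added value, the filter, the scaling, the variance moderation, the threshold, the model (voom on recovered reads), the replicate block and the libraries.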

Additional observations from a re-analysis of the deposited data

How the results depend on the processing

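The counts of changed genes (1655) and of list genes past the threshold (12) depended on the settings more than the fold changes did. They were 792 and 5 without the filter on low values, 847 and 5 with moderation without trend and robust, 2691 and 20 with voom on the recovered reads, 3787 and 29 at an adjusted p of 0.05, and 294 and 2 with a 2-fold change in addition. With each library left out in turn they were 528 to 1603 and 3 to 13, lowest without siC replicate 1. Whether the replicate numbers pair the libraries was not settled. Over all tested genes, same-numbered deviations correlated at −0.0661, 0.0783 and 0.083, and differently numbered ones at −0.1437 to 0.07. On the second principal component of the libraries, replicate 2 was lowest and replicate 3 highest in both groups. Their scores were −15.39 and 13.15 in siC and −33.97 and 34.75 in siMSI1. The main fit held no block for the replicate. With the replicate block the counts were 2250 and 17, and with voom and the replicate block 4874 and 41. In this balanced design the block cannot alter a fold change on the FPKM scale. Other added values, a filter of 1 FPKM, centring and quantile normalization kept both counts within 1.5 times. The cause of these differences between settings was not tested.

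The log2 fold change of GFPT2 was 1.33 with an added value of 1 and 1.33 to 1.44 over 16 alternatives, 1.40 to 1.44 with a library left out, where the filters, the moderation and the block leave fold changes as they are by construction. Over the same 16, GFPT1 was at −0.28 to −0.17, PGM3 at −0.35 to −0.18, UAP1 at −0.18 to −0.05, OGT at −0.27 to −0.16, and GNPNAT1 at −0.11 to 0.14. The GFPT2 share of both isoenzymes was 36.1% in siC and 64.0% in siMSI1 by reads, 61.8% and 83.5% by canonical length, and 50.1% to 52.0% and 75.9% to 77.6% with a library left out. GNPDA1 changed sign with quantile normalization (−0.0021), without siC replicate 2 (−0.028) and without siMSI1 replicate 3 (−0.039), as did CMAS without siMSI1 replicate 3 (0.019). With a library left out, GNPDA1 ranged from −0.039 to 0.036 and CMAS from −0.105 to 0.019. Over the 16 alternatives, HAS3 was at 0.90 to 1.29 and CHSY1 at −1.45 to −0.88. Both differences were smallest with an added value of 1 (0.90 and −0.88). HAS3, CHSY1 and ATF6 were past the threshold in all 16, with adjusted p-values up to 0.0044, 0.00998 and 0.00982, MGAT5 in 15, PFKM in 12, PFKFB3 and CHSY3 in 10, SLC38A1 and NADSYN1 in 9, GNPDA2 and CHPF2 in 8 and PFKL in 7. CHPF was gained with the replicate block (adjusted p = 0.0073), with voom (0.0065) and with both (6.8e-07), and BAP1 (0.00998), GLUL (0.0040) and GALNT2 (0.00051) with both. A design of 3 libraries per group and a gene-level table limit what can be seen of isoforms and of small differences.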

Other observations

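Of the list genes, 4 had an adjusted p between 0.01 and 0.02 and are given here because their values were seen. AMDHD2, which removes the acetyl group from GlcNAc 6-phosphate in salvage, was at 5.95 ± 0.455 FPKM in siC and at 4.30 ± 0.328 FPKM in siMSI1 (SD, n = 3; log2 fold change −0.46, adjusted p = 0.013 from limma). GNE, the first enzyme of the sialic acid branch, which draws on UDP-GlcNAc, was at 7.15 ± 0.140 FPKM in siC and at 5.43 ± 0.333 FPKM in siMSI1 (−0.39, adjusted p = 0.010, just above the threshold). EXTL3, an exostosin-like enzyme of heparan sulfate synthesis, averaged 12.1 ± 0.481 FPKM in siC and 8.92 ± 0.989 FPKM in siMSI1 (−0.44, adjusted p = 0.012). GALNT1, which starts mucin-type O-glycans, was the one with the higher level in siMSI1, at 9.77 ± 1.18 and 15.0 ± 2.36 FPKM (0.61, adjusted p = 0.015). Of the 101 list genes, 15 were under the filter on low values, among them GLS2, at most 15 reads in a library, FBP1, at most 10 reads, and RENBP, at most 7 reads.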
